A study of Rattus norvegicus with 8 samples.

Results

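The sites described here are broad stretches of H3K27ac in rat sciatic nerve that lie in small neighbourhoods acetylated in both injured and sham-operated nerve. They were chosen from the deposited peak lists of the 2 conditions. Peaks of both lists were pooled and linked into a domain when the next peak started at most 12.5 kb after the furthest end so far. Domains with at least 1 peak of each list and at most 4 peaks in all were kept, overlapping peaks in them were merged, and merged intervals of 1000 bp or more were taken. This gave 755 broad sites among 46044 merged intervals in all. They lay in 725 of the 4208 compact shared domains (17.2%), and 695 of these domains held 1 broad site and 30 held 2. The number of sites depends on these settings and ranged from 307 to 1402 over the alternatives tried.

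The study used chromatin immunoprecipitation with sequencing (ChIP-seq) on male Sprague Dawley rats operated on at postnatal day 25. In the injury group the sciatic nerve was cut, and in the sham group the opposite leg received an incision of the skin alone. The nerve distal to the operated level was taken 72 h later, at postnatal day 28, without separating its cells. There were 2 H3K27ac samples and 2 inputs per condition, and 1 peak list per condition was used, so no value below has a spread between replicates. The depth of the samples is unknown here.

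H3K27ac is acetylation of lysine on the tail of histone H3, and it is found at active promoters and active enhancers. Where acetylation continues over several nucleosomes, peak callers commonly report a wide interval, and where it is weak or patchy, narrow or separate ones. The sciatic nerve holds axons, the Schwann cells that wrap them, fibroblasts and vessels. After a cut, the distal axons degenerate, Schwann cells leave their myelinating state and immune cells enter the nerve. In whole tissue, fewer cells of a type and less acetylation per cell cannot be told apart. Peaks were not assigned to genes, so each site is named by its position on Rnor_5.0.

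Most of the broad sites were called in both conditions. Of the 755 sites, 668 (88.5%, 95% Wilson interval 86 to 90.6) held a peak of each list, 60 (7.95%) held only an injury peak and 27 (3.58%) only a sham peak. Over all merged intervals, 25.5% were called in both lists, 41.8% in injury only and 32.7% in sham only. The rule kept only domains with a peak of each list, and wide intervals have more base pairs in which to meet a peak of the other list, so nothing is read from that contrast. Intervals of under 1000 bp in the same kind of domain were called in both lists in 39% of 7374 cases. The 3328 broad intervals in shared domains of 5 or more peaks were closer to the sites described here, at 82.1% (80.7 to 83.3).

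The sites were short beside the widest H3K27ac intervals of the series. Their median width was 1399 bp, with quartiles of 1199 and 1799 bp and a range of 1099 to 4799 bp, whereas broad intervals in domains of 5 or more peaks had a median of 1599 bp and reached 14099 bp. Peak starts lie on a grid of 100 bp, so the narrowest sites, 144 in number, were 1099 bp wide, and the 156 intervals that just missed the rule were 999 bp wide. On either side of that limit, 80.6% of the intervals at 1099 bp and 84% of those at 999 bp were called in both lists. Among those called in both, 54.3% and 58% had more injury than sham base pairs, with a median injury excess of 100 and 200 bp. For the limit of 4 peaks, the broad intervals numbered 329 in domains of 4 and 316 in domains of 5, with 83.9% and 80.7% called in both lists. Among those called in both, 60.9% and 65.9% had more injury base pairs, and the median injury excess was 201 and 501 bp.

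**Figure D1:**
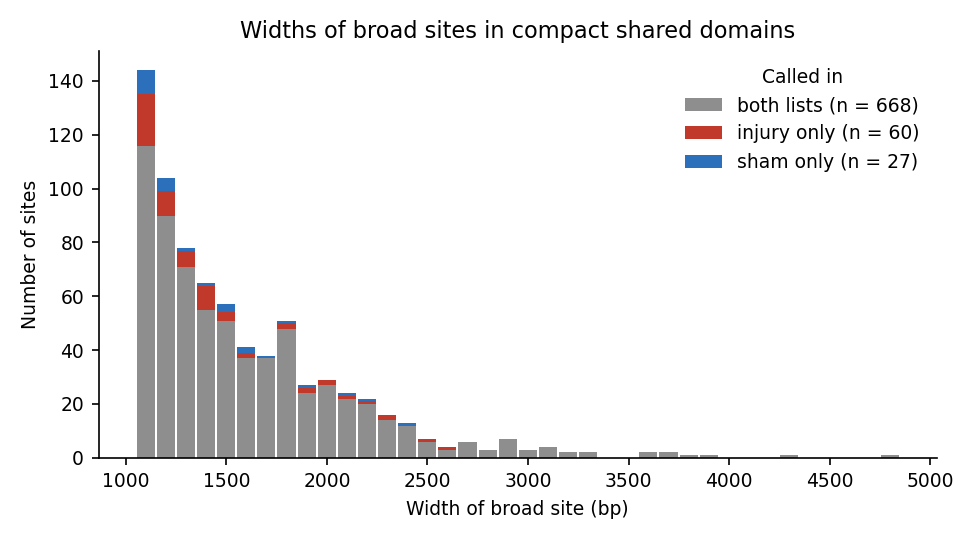
Widths of the 755 broad sites in steps of 100 bp (x axis, bp) against the number of sites (y axis), stacked by the list or lists in which a site was called. The 668 sites called in both lists make up most of every bar, and sites called in 1 list are most frequent at the narrow end.

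The limit of 4 peaks fixes a low number of intervals and favours a short span in the domains around the sites. In 286 of the 725 domains (39.4%) the broad site was the only interval, and the median domain spanned 2199 bp. The nearest other domain lay at a median distance of 25.7 kb, against 29.8 kb for the 3483 compact shared domains without a broad site. The distance was 22.3 kb for the 3257 shared domains of 5 or more peaks and 29.6 kb over all 16558 domains of the series. Neighbouring sites on a chromosome were a median of 1595 kb apart, and 85 of the 734 gaps between them (11.6%) were under 100 kb.

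The widest sites included both even and very uneven pairs of calls. The widest lay on chromosome 4 at 162639301 to 162644099, where an injury peak of 4799 bp held a single sham peak of 299 bp near its lower end. On chromosome 7 at 37554301 to 37558199, an injury peak of 3899 bp faced a sham peak of 199 bp. On chromosome 2 at 42336401 to 42340199, an injury peak of 3799 bp was centred on a sham peak of 199 bp. A width of 199 bp is the smallest in the lists, and the median peak width of either list is 299 bp. At these sites sham nerve thus had a call of common, short width inside a broad injury call. On chromosome 17 at 52244601 to 52248199, an injury peak of 3599 bp held 2 sham peaks of 299 and 199 bp. On chromosome 3 at 174023401 to 174027099, the injury peak of 3699 bp and the sham peak of 1099 bp began at the same base, and the injury call ran 2600 bp further. Among sites called in both lists, these 5 also had the largest excess of injury over sham base pairs, from 2600 to 4500 bp. A site on chromosome 17 at 89598601 to 89601399, with an injury peak of 2799 bp and a sham peak of 199 bp, tied with the last of them.

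In other sites of the same width class the calls nearly matched. On chromosome 2 at 8617801 to 8621499, the injury and sham peaks were 3699 and 3399 bp wide and shared their lower border. On chromosome 5 at 155585101 to 155588399, they were 3299 and 2899 bp wide, with no other peak in the domain. On chromosome 1 at 177323001 to 177326299, the sham peak was the wider, at 3299 against 2899 bp. These 3 sites kept a broad call in either condition. On chromosome 3 at 28037401 to 28041699, an injury peak of 4299 bp covered 2 sham peaks of 2299 and 1099 bp, so the sham call had nearly the same extent with a break in it. On chromosome 6 at 65491001 to 65494599, a sham peak of 3599 bp enclosed an injury peak of 1999 bp, the largest excess of sham base pairs among the 10 widest sites.

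**Figure D2:**
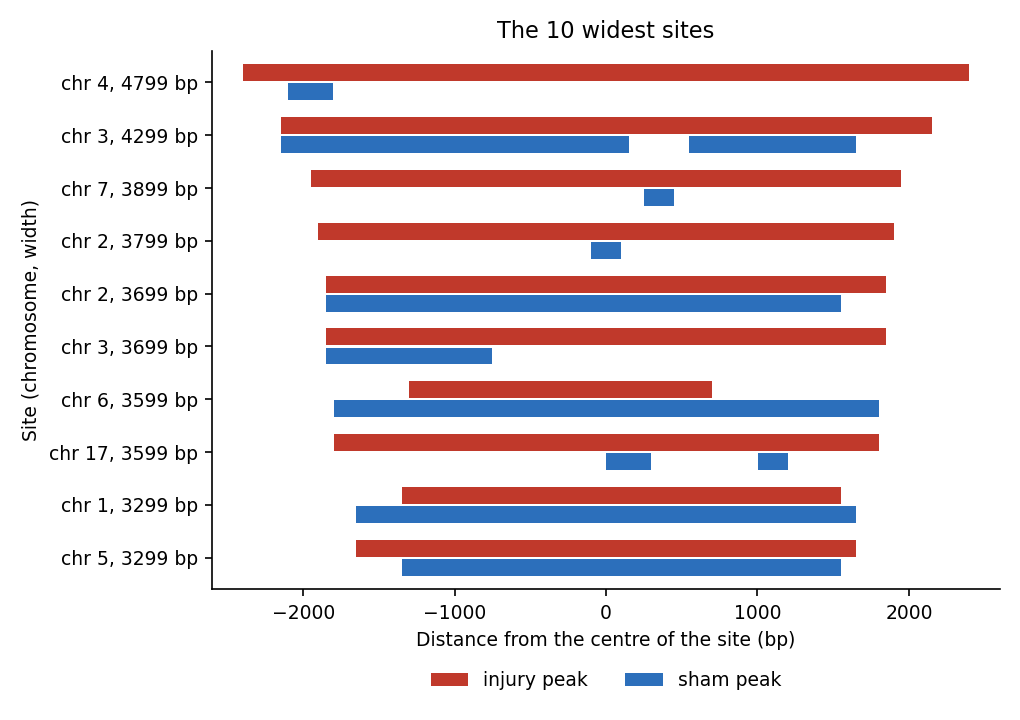
Injury peaks (red) and sham peaks (blue) of the 10 widest sites, drawn to scale against the distance from the centre of each site (x axis, bp), with the widest at the top. In 4 sites the sham calls are short pieces of 199 or 299 bp inside an injury peak of 3599 to 4799 bp, and in 2 sites (chromosomes 6 and 1) the sham peak is the wider.

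Among sites called in both lists, the 5 with the largest excess of sham base pairs were narrower than the 5 with the largest injury excess. On chromosome 2 at 276372601 to 276374899, a sham peak of 2299 bp enclosed an injury peak of 299 bp. On chromosome 9 at 105195901 to 105197999, a sham peak of 2099 bp enclosed an injury peak of 199 bp. A site of the same form on chromosome 4 at 191108701 to 191110699 had a sham peak of 1999 bp around an injury peak of 199 bp. So did a site on chromosome 20 at 24956901 to 24958799, with a sham peak of 1899 bp. In each of these the injury call was no wider than 299 bp, the median peak width of the list, the mirror image of the sites on chromosomes 7 and 2 above. On chromosome 1 at 55345501 to 55348399, a sham peak of 2899 bp covered 2 injury peaks of 699 and 399 bp. These 5 sites had 1700 to 2000 more sham than injury base pairs, and a site on chromosome 20 at 28618101 to 28619999 tied with the last of them.

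Identical borders in both conditions were uncommon. Of the 668 sites called in both lists, 16 (2.4%, 1.48 to 3.86) consisted of 1 injury and 1 sham peak with the same start and end. The widest of these, of 2299 bp, were the site on chromosome 8 at 39577301 to 39579599 and a site at 1488401 to 1490699 on chromosome 12. The next, of 2199 bp, was on chromosome 4 at 6890301 to 6892499. Broad intervals in domains of 5 or more peaks had identical borders in 2.49% of cases (1.97 to 3.14), and the intervals overlap. Over all intervals called in both lists the share was 10.8%, most of them narrow intervals with few possible borders on the grid.

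Injury calls covered more base pairs than sham calls in most of the sites called in both lists. The injury call was the larger in 407 of 668 sites (60.9%, 57.2 to 64.6), the sham call in 228 (34.1%, 30.6 to 37.8), and 33 were equal. Over all intervals called in both lists, 46.6% had more injury and 35.4% more sham base pairs, and 18% were equal, against 4.94% of the sites. Equal extents were more frequent among narrow intervals, so nothing is read from the difference between 60.9% and 46.6%. Over the 668 sites, the median excess was 200 bp in favour of injury, with quartiles of −201 and 725 bp. The injury list as a whole covered 1.28 times as many base pairs as the sham list, and within the 755 sites the ratio was 1.27, so the sites stood at the level of the whole lists. Broad intervals in domains of 5 or more peaks had a ratio of 1.23 and a larger injury call in 57.5% (55.7 to 59.4).

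In 410 of the 668 sites (61.4%) the injury and sham extents were within 2-fold of each other. The injury extent was at least 2-fold the sham extent in 178 sites (26.6%, 23.4 to 30.1), and the sham extent at least 2-fold the injury extent in 80 (12%, 9.73 to 14.7). At 5-fold the numbers were 60 (8.98%) and 18 (2.69%). In domains of 5 or more peaks the shares of broad intervals were 26.5% and 11.5% at 2-fold, and 7.36% and 2.89% at 5-fold, inside the intervals of the sites described here. Over all intervals called in both lists, 20.2% and 11.6% passed 2-fold, and 2.51% and 0.987% passed 5-fold. A wide interval leaves more room for a large ratio, and the sites were chosen for width.

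**Figure D3:**
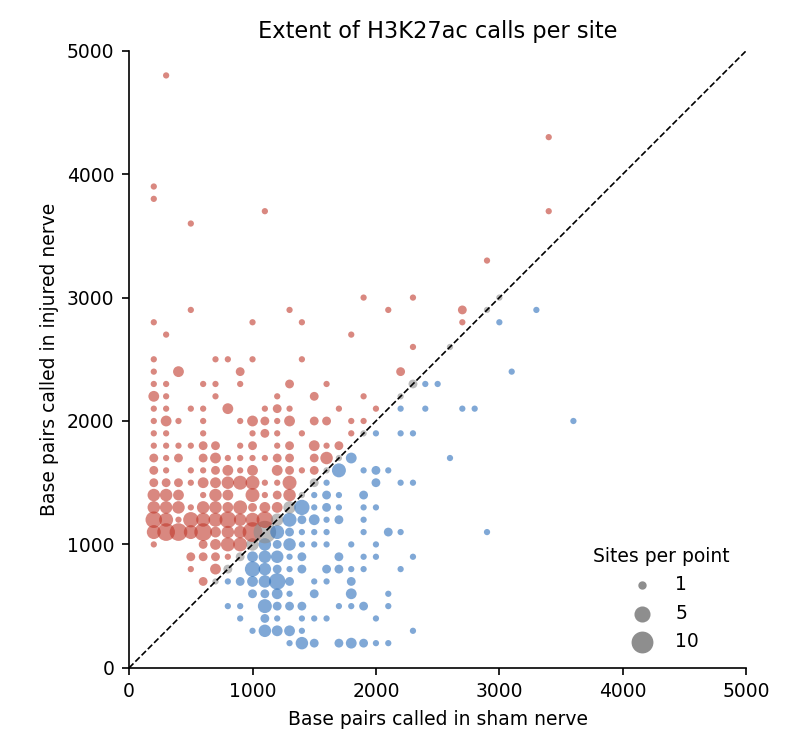
Base pairs called in injured nerve (y axis) against those called in sham nerve (x axis) for the 668 sites called in both lists, rounded to 100 bp, with the area of a point giving the number of sites. Points above the dashed line of equality (407 sites) outnumber those below it (228), and the 4 sites farthest from the line combine an injury call of 3599 to 4799 bp with sham calls of 199 to 498 bp.

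The excess of injury base pairs was most frequent in the widest sites. The injury call was the larger in 58.7% (53.4 to 63.9) of the 332 both-list sites under 1400 bp and in 59.8% (53.3 to 66) of the 224 sites of 1400 to 2000 bp. Among the 112 sites over 2000 bp it was the larger in 69.6% (60.6 to 77.4). The median excess was 101, 250 and 701 bp in the same order. The intervals of the classes overlap, and width was itself set by the larger call, so this order is a description of the chosen sites.

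A single injury peak met a single sham peak in 446 of the 755 sites (59.1%, 55.5 to 62.5), or 66.8% (63.1 to 70.2) of the 668 called in both lists. The share was 85% over all intervals called in both lists, and 52.8% (51 to 54.7) among broad intervals in domains of 5 or more peaks. The limit of 4 peaks per domain bounds the makeup of the sites, so these shares are not compared further. When peaks of a domain were merged across gaps of up to 500 bp, the share of 59.1% became 23.3%. In the 446 sites the median width was 1199 bp for the injury peak (quartiles 999 and 1599) and 999 bp for the sham peak (599 and 1299). Both peaks reached 1000 bp in 127 sites, the injury peak alone in 196, the sham peak alone in 90 and neither in 33, where 2 shorter peaks overlapped end to end. The sham peak was at the smallest width in 40 sites and the injury peak in 16. A broad site of this kind was therefore most often a broad call in 1 condition over a shorter call in the other. Peaks of the 2 conditions shared a median of 53.6% of the base pairs that either covered.

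In another 216 sites a single peak of one condition met 2 or 3 peaks of the other. The unbroken peak was the injury peak in 134 of them (62%, 55.4 to 68.2) and the sham peak in 82. Over all intervals called in both lists the injury peak was the unbroken one in 59.6% of 1640 such cases (57.2 to 62), so the sites showed the proportion of the lists at large. Breaks were small: 69 of the 138 breaks in the sham call and 46 of the 86 breaks in the injury call measured 201 bp, the smallest gap that occurs, and the largest were 801 and 701 bp. The broken call lay within the outer borders of the unbroken peak in 70 of the 134 and in 37 of the 82 sites.

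At their borders, injury calls ran beyond sham calls more often than the reverse. The injury call extended past the sham call at both ends in 214 of 668 sites (32%, 28.6 to 35.7), and the sham call past the injury call at both ends in 112 (16.8%, 14.1 to 19.8). In 149 sites (22.3%) the calls were staggered, each reaching further at 1 end. Over all intervals called in both lists the corresponding shares were 16.2%, 10.6% and 23.3%. The lower-coordinate borders of the 2 calls were within 200 bp of each other in 55.1% of the sites and the higher-coordinate borders in 56.6%, against 77.7% and 77.8% over all intervals called in both lists. A wide interval leaves more room for borders to lie apart, and the sites were chosen for width. Nothing is therefore read from the contrast with all intervals. The farthest injury extension was 4200 bp, in the site on chromosome 4 that was also the widest, and the farthest sham extension was 1600 bp.

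**Figure D4:**
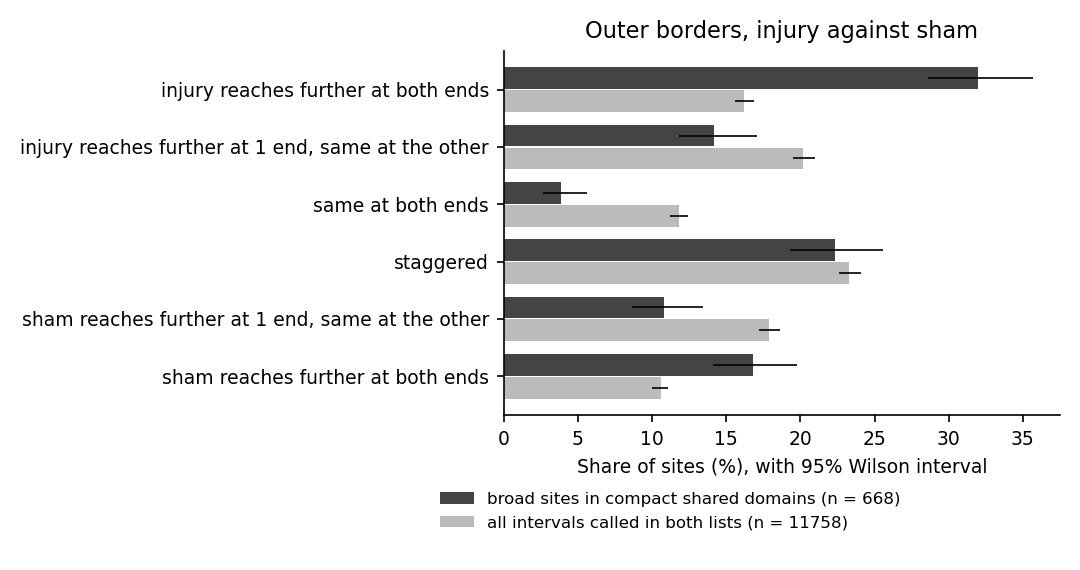
Share of sites (x axis, %, with 95% Wilson intervals) by how the outermost borders of the injury and sham calls relate, for the 668 broad sites called in both lists (dark) and for all 11758 intervals called in both lists (light). Injury reached further at both ends in 32% of the broad sites and sham in 16.8%, and 3.89% had the same borders at both ends. The broad sites were chosen for width, which leaves more room for borders to differ.

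A small number of broad sites were called in 1 condition although their domain held peaks of both. The 60 injury-only sites had a median width of 1299 bp, and the nearest sham peak lay a median of 2701 bp away. The 27 sham-only sites had a median width of 1199 bp, and the nearest injury peak lay a median of 3001 bp away. The widest injury-only sites were on chromosome 17 at 55669301 to 55671899 (2599 bp), chromosome 7 at 71074601 to 71077099 (2499 bp) and chromosome 4 at 183140301 to 183142599 (2299 bp), the last tied with a site on chromosome 7 at 119658401 to 119660699. The site on chromosome 17 had a sham peak of 199 bp just 201 bp below its start. The widest sham-only sites were on chromosome 20 at 36468201 to 36470599 (2399 bp), chromosome 9 at 105188601 to 105190799 (2199 bp) and chromosome 2 at 185393201 to 185395299 (2099 bp). The site on chromosome 9 shared its domain with the sham-dominated site at 105195901 named above, so that domain held 2 broad sham calls and a single injury peak of 199 bp.

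Few broad sites were in the differential lists. In the authors' deposited table of injury differential peaks, 24 peaks fell in 24 of the 755 sites (3.18%, 2.15 to 4.69), where 9.36% of all merged intervals overlapped such a peak. In the authors' deposited table of sham differential peaks, 8 peaks fell in 8 sites (1.06%, 0.538 to 2.08), where the share over all intervals was 7.15%. Merging across gaps of up to 500 bp gave 5.28% and 3.42%, and a link distance of 25 kb gave 2.34% for sham. Broad intervals in domains of 5 or more peaks stood closer to the sites than all intervals did. Their shares were 3.79% (3.19 to 4.49) for injury and 1.8% (1.4 to 2.31) for sham. Most differential peaks fell in intervals called in 1 list, and most of the sites were called in both. Nothing is therefore read from the contrast with all intervals. All 8 sham-differential sites and 16 of the 24 injury-differential sites were called in 1 list only. Among sites called in a single list, 26.7% of the 60 injury-only sites (17.1 to 39) were in the authors' deposited table for injury, against 22.0% of all intervals called in injury only. Of the 27 sham-only sites, 29.6% (15.9 to 48.5) were in the authors' deposited table for sham, against 21.8% of all intervals called in sham only. Both background shares lie inside these intervals. The differential lists come from the same reads as the peak lists, so these shares are a description with no test.

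The other 8 injury-differential sites were called in both conditions, with a sham call of 199 to 699 bp. The widest lay on chromosome 10 at 106366001 to 106368699, where the authors' deposited table listed the injury peak of 2699 bp and the sham peak measured 299 bp. On chromosome 17 at 31608001 to 31610499, the injury peak in the authors' deposited table was 2499 bp wide and the sham peak 699 bp. In these 8 sites the injury extent was 2.5 to 9.03 times the sham extent, taken over the whole site. On chromosome 14 at 114750501 to 114752599, 2 injury peaks together covered 1798 bp. The differential peak there was 599 bp wide, shorter than the sham call of 699 bp. The widest injury-only site in the authors' deposited table lay on chromosome 7 at 119658401 to 119660699 (2299 bp). The widest sham-differential sites in the authors' deposited table were the site on chromosome 20 at 36468201, a site of 1799 bp on chromosome 18 at 56970801 to 56972599 and a site of 1599 bp on chromosome 3 at 170370201 to 170371799, which tied with a site on chromosome 5 at 27533801 to 27535399. On chromosome 18 the next injury peak, 199 bp wide, began at 56972601, beside the end of the sham peak without overlapping it.

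Sites with a large excess of injury call were mostly outside the authors' deposited tables, though they held most of the both-list sites that were inside. Of the 113 both-list sites with at least 1000 bp more injury than sham call, 6 (5.31%, 2.46 to 11.1) overlapped a peak of the authors' deposited table for injury, and these were 6 of the 8 such sites among all 668 both-list sites (1.2%). Over all intervals called in both lists, 0.595% overlapped a peak of the authors' deposited table for injury, and 4.38% of those with at least 1000 bp more injury call did. Of the 48 with at least 1000 bp more sham call, 0 overlapped a peak of the authors' deposited table for sham (interval up to 7.41%), where the share over all such intervals was 2.06%. None of the 6 both-list sites with an injury excess of 2600 bp or more, among them the site of 4799 against 299 bp on chromosome 4, overlapped a peak in the authors' deposited tables. The sources used here do not state the thresholds behind those tables.

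Narrow intervals beside a broad site tended to be called in the condition in which the site was larger. The 725 domains held 568 intervals of under 1000 bp, with a median width of 299 bp and a median distance of 1001 bp from the nearest broad site. Of these, 267 were called in injury only, 208 in sham only and 93 in both lists. Each was set against its nearest broad site, where that site was called in both lists. Beside sites with more injury base pairs, 165 of 225 single-list intervals (73.3%, 67.2 to 78.7) were injury-only. Beside sites with more sham base pairs, 38 of 126 (30.2%, 22.8 to 38.7) were injury-only. Over all the narrow single-list intervals in these domains the share was 56.2% (51.7 to 60.6). Where the domain had a single broad site made of 1 peak of each list, the shares were 73.3% of 165 and 33.3% of 96 intervals. Of the 568 narrow intervals, 283 (49.8%) lay within 1000 bp of the nearest broad site. The breaks inside sham calls described above measured 201 to 801 bp. Whether such neighbours belong to the site's own call was not tested, and the shares were not recomputed with wider merging of peaks. The same shares are not given here for broad intervals in other domains or over the whole series. The limit of 4 peaks per domain bounds how many such neighbours a site can have. Both measures also come from the same 2 lists, so no test was applied.

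**Figure D5:**
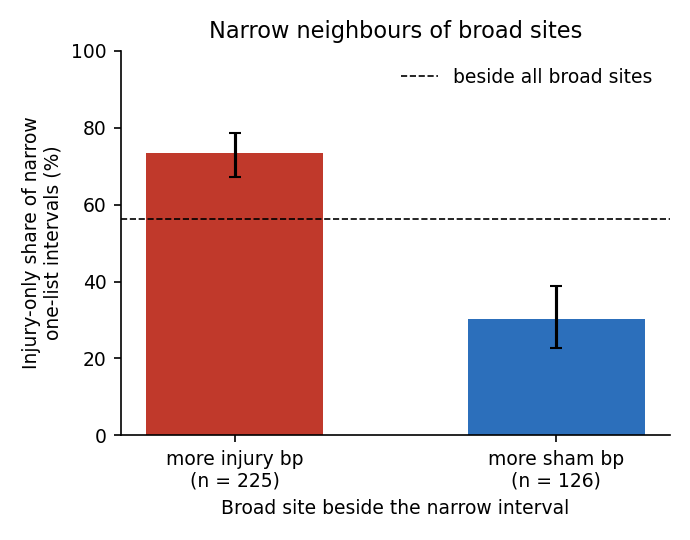
Share of narrow single-list intervals that were called in injury only (y axis, %, with 95% Wilson intervals), for intervals whose nearest broad site had more injury base pairs (n = 225) or more sham base pairs (n = 126). The share was 73.3% beside the former and 30.2% beside the latter, on either side of the dashed line at 56.2% for the intervals beside all broad sites.

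Every one of the 20 autosomes and chromosome X held broad sites. Chromosome 1 held 99 of them and chromosome X held 3. Relative to the compact shared domains of each chromosome, a broad site was present in 3 of 87 domains on chromosome X (3.45%, 1.18 to 9.65) and in 28 of 113 on chromosome 20 (24.8%, 17.7 to 33.5), with the other autosomes between 12.1% and 23.6%. Sites with a larger injury call outnumbered those with a larger sham call on 20 of 21 chromosomes. Chromosome 9 was the exception, with 14 against 15 sites. Some counts were small, with 7 against 6 sites on chromosome 13 and 3 against 0 on chromosome X. All intervals called in both lists also leaned to injury (46.6% against 35.4%), and their lean by chromosome is not given here. Over the base pairs of the sites, sham exceeded injury on chromosomes 13 and 9, where the ratio of injury to sham was 0.865 and 0.992, and the ratio reached 1.6 on chromosome 19.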

How the data were processed

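H3K27ac ChIP-seq of 2 sham and 2 injured nerve samples, with 2 inputs each, is represented by 4 deposited peak lists. Per the submitters' processing notes, CASAVA 1.8.2, Bowtie, HOMER and the build Rnor_5.0 were used, with no role given. The sources used here do not name the peak caller, its thresholds or how replicates were pooled. The files deposited by the authors hold starts and ends in base pairs with a running line number, and no height, score or value per replicate. Printed starts are 1-based, one above the deposited BED start. A width is the end minus the start as deposited. Numbers with exponents (8 lines) were read as whole numbers and blank lines dropped.

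Domains and sites were built in Python 3.11.15 (pandas 2.3.3), and the steps were tested on simulated data. Shares carry 95% Wilson intervals (statsmodels 0.14.6), which cover counting error over sites only. The sites and lists were chosen with earlier results of these data known, and the sites were chosen from the measured peaks, so no test was run. An overlap means at least 1 bp. Named regions are the 10 widest sites, the 5 with the largest excess in each direction, the 3 widest called in each single list, with identical borders, and in each differential list. Genes and sequences at the sites were not analysed here, since the gene and sequence tables used are on another assembly (GRCr8).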

Additional observations from a re-analysis of the deposited data

How the results depend on the processing

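No paired analysis was possible because a condition has a single peak list for both of its numbered samples, and leaving out a replicate was not possible either. Of 83 recomputed values, 51 stayed within 1.5-fold (number of sites) or inside the 95% interval of the reported value, and 32 did not. Only the median injury excess could change sign, and it kept its sign under all 9 alternatives. The share of both-list sites with more injury base pairs stayed inside its interval under all 9 alternatives. With link distances of 5 and 25 kb there were 1217 and 428 sites, 91.5% were called in both lists at 5 kb, and 2.34% overlapped a sham differential peak at 25 kb. The share of base pairs called in both lists, 46.6% as reported, was then 46.7% and 45.7%. With at most 3 or 6 peaks per domain there were 426 and 1296 sites, 92% and 85.3% were called in both lists, 48.5% and 43.1% of base pairs were, and 64.1% and 54.4% of sites had 1 peak of each list; 2.11% overlapped an injury differential peak with at most 3. With widths from 800 or 1500 bp, the median width was 1199 and 1899 bp, 45.9% and 47.2% of base pairs were called in both, and 63.3% and 52.8% had 1 peak of each; from 1500 bp there were 307 sites, 92.8% in both lists, with a median injury excess of 301 bp. Merging across gaps of up to 500 bp gave 1402 sites, 38.3% of base pairs in both, 23.3% with 1 peak of each, and 5.28% and 3.42% with an injury or sham differential peak. Without peaks of the smallest width, 45.6% of base pairs were called in both and 64.1% of sites had 1 peak of each. Without chromosomes 1 and 14, 46% of base pairs were. The interval for base pairs counts each as independent, so it is very narrow. As deposited, peaks that abut are 1 bp apart and were not merged, which concerns 16 sites (2.12%). Unknown depth limits every comparison of extent, since a peak that was not called is not a measured absence.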

Other observations

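In the 30 domains with 2 broad sites, the sites were a median of 1101 bp apart. Both sites had more injury base pairs in 14 domains and both more sham base pairs in 9, with sites called in 1 list included. In 4 domains the sites went opposite ways, and in 3 at least 1 site had equal extents. In 13 domains both sites were called in both lists, and in 0 domains was an injury-only site paired with a sham-only site. A domain of 2 broad sites holds at most 4 peaks, which bounds these combinations.

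No source used here states the meaning of the running line number of the lists. The positions below describe the order of lines only, and nothing is read from them. Over all chromosomes, peaks of the broad sites stood at a median of 42.6% of the way through the sham list and 47.6% through the injury list. Peaks of the other broad intervals stood at 41.8% and 48%. The last 20% of lines held 15.9% of the sites' peaks in the sham list and 20.6% in the injury list, against 12.5% and 21.6% for the other broad intervals.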
